A study of Mus musculus with 10 samples.

Results

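Collagen genes encode the secreted and membrane-bound proteins that give the lung wall its tensile strength and its basement membranes. The members were all genes whose symbol in the array's annotation was Col, a type number, a and a chain number, taken from probe sets with exactly 1 symbol. This gave 36 of the 12393 genes measured, on 58 of 22626 probe sets, and for each gene the probe set that was brightest on average over the arrays stood for it. Of these, 9 were fibrillar collagens, 6 were type IV collagens of basement membranes, 3 were type VI collagens of beaded filaments and 18 were other types. Of the symbols in the reference annotation, 44 followed the same pattern, and 8 of them had no such probe set here.

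One group was whole lung of male C57BL/6 mice aged 6 to 8 weeks exposed to intermittent hypoxia, in which inspired oxygen falls and recovers repeatedly (5 mice), and the other was whole lung of male C57BL/6 mice of the same age in normoxia (5 mice). Lung total RNA was hybridised to Affymetrix Mouse Genome 430A 2.0 arrays, 1 per mouse, and the series' design text counts 5 animals in each group. Neither the oxygen concentration nor the duration is given in the sources used here. As whole lung mixes many cell types, more cells of a type and more RNA per cell cannot be told apart in any value below.

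A collagen is built of chains that repeat glycine at regular steps and wind around each other into a helix. Fibrillar types assemble into ropes of the interstitium, type IV forms the sheet under epithelium and endothelium, and type VI forms fine filaments around cells. Other types decorate fibrils, span the cell membrane or lie in basement membrane zones. In the lung, fibroblasts make most fibrillar collagen, and epithelial and endothelial cells share in making type IV. New chains are hydroxylated and folded in the endoplasmic reticulum, trimmed outside the cell and then crosslinked.

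The promoter windows of 4 members are shown because they belong to fibrillar genes that rose (Col1a2 and Col3a1, beside Col1a1, whose window is not shown) and to the type IV pair that shares a start region. They are RefSeq windows of GRCm38.p6, from 250 bases before to 50 bases after the gene start, printed on the strand of the gene. Capitals mark the CCAAT box, the GC box GGGCGG, the TATA box TATAAA and ACGTG, the core of sites bound by hypoxia-inducible factors and other basic helix-loop-helix factors, each on either strand.
Col1a2, chr6:4505368-4505667, plus strand: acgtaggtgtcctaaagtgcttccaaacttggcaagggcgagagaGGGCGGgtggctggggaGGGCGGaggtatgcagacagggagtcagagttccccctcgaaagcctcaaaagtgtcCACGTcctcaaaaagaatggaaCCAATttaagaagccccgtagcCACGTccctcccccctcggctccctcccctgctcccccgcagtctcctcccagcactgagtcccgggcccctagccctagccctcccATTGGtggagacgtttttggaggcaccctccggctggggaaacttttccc
Col3a1, chr1:45311288-45311587, plus strand: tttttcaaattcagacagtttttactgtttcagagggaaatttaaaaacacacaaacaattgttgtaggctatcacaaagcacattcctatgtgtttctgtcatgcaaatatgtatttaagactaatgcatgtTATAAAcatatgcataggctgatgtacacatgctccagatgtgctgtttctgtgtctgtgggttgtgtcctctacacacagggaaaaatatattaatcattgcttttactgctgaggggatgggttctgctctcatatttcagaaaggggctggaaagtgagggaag
Col4a1, chr8:11312777-11313076, minus strand: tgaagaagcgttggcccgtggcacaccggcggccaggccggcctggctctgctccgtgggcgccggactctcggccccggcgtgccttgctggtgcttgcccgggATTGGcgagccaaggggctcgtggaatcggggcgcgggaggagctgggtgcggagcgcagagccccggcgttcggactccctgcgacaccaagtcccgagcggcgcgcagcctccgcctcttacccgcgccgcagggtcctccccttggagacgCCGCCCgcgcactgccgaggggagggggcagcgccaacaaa
Col4a2, chr8:11312555-11312854, plus strand: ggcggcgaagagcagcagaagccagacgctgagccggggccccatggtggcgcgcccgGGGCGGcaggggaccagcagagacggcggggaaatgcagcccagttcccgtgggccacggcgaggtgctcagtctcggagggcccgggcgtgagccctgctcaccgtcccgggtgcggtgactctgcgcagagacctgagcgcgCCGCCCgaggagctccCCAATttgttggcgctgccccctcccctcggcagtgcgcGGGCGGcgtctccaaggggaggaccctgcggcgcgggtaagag
The Col1a2 window held 2 CCAAT, 2 GGGCGG and 2 ACGTG matches, and the Col3a1 window held 1 TATAAA match and none of the other motifs. The Col4a1 and Col4a2 windows face in opposite directions and share 78 bases.

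Intermittent hypoxia lungs had higher RNA levels of the genes of type I, III and VI collagen and of part of the type IV chains. These calls did not hold when normoxia arrays 2 to 4 were left out together, as described below. Of 36 collagen genes 13 rose, 0 fell and 23 did not pass limma's test at an adjusted p below 0.05. Over all 12393 genes 8.93% were higher and 3.6% were lower by the same rule. Without adjustment, 16 collagens were higher and 3 were lower at p below 0.05, a rule for which no share over all genes was computed. SAM, the study's own method, called 14 collagens higher and 0 lower, beside 1619 genes higher and 862 lower over all 12393. The median log2 difference of the collagens was 0.12, against 0.01 over all genes, and 26 of 36 differences were above 0. In 10 collagens every intermittent hypoxia array lay above every normoxia array, and in 0 every one lay below. Over all genes 5.76% separated upward and 2.85% downward.

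**Figure D1:**
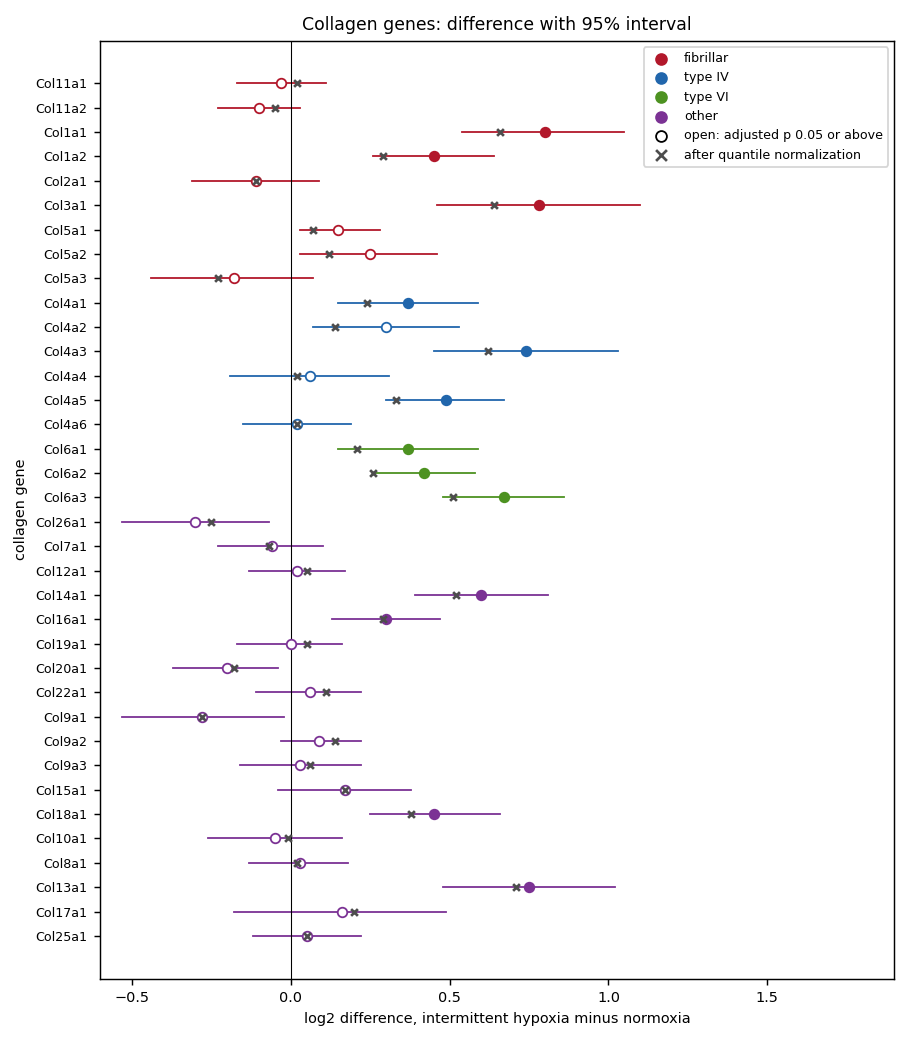
Log2 difference (intermittent hypoxia minus normoxia, x axis) of each of the 36 collagen genes (y axis) with its 95% interval from limma, coloured by class. Filled points passed the test and crosses give the difference after quantile normalization. The filled points run from 0.30 for Col16a1 to 0.80 for Col1a1, and all crosses of filled points lie above 0.

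Among the fibrillar collagens, 3 of 9 rose, 0 fell and 6 did not pass, with a median difference of 0.15. The risers were both chains of type I, the main load-bearing collagen, and the chain of type III, the collagen of compliant tissue. Col1a1 had log2 levels of 11.00, 10.97, 11.08, 11.01 and 10.69 on the intermittent hypoxia arrays, against 10.52, 10.12, 9.92, 9.90 and 10.31 on the normoxia arrays. The groups did not overlap, and the lowest intermittent hypoxia array was number 5. The difference was 0.80 (SE 0.12, limma adjusted p = 0.00422), a 1.74-fold higher level.

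Col1a2, the second chain of type I, read 12.44, 12.55, 12.48, 12.40 and 12.23 in intermittent hypoxia, against 12.11, 12.00, 11.83, 11.77 and 12.15 in normoxia. The groups were separate by a narrow gap. The difference was 0.45 (SE 0.09, limma adjusted p = 0.00996) or 1.37-fold, and its 95% interval of 0.26 to 0.64 overlapped that of Col1a1, from 0.54 to 1.05. Whether the pair of chains changed by unequal amounts was not tested.

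Col3a1, which forms type III collagen alone, read 12.70, 12.75, 12.70, 12.82 and 12.46 in intermittent hypoxia, against 12.20, 11.90, 11.76, 11.36 and 12.30 in normoxia. The SD was 0.14 over the intermittent hypoxia arrays and 0.37 over the normoxia arrays. Its difference was 0.78 (SE 0.15, limma adjusted p = 0.00929), or 1.72-fold. A second probe set of Col3a1 read 8.51, 8.28, 8.44, 8.67 and 8.29 in intermittent hypoxia, against 7.47, 7.01, 7.07, 6.94 and 7.77 in normoxia. This dimmer probe set differed by 1.19 (SE 0.15, limma adjusted p = 0.00163), more than the first.

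The second probe set of Col1a2 also passed, at 0.32 (SE 0.07, limma adjusted p = 0.0157), whereas that of Col1a1 did not, at 0.22 (SE 0.10, limma adjusted p = 0.132). On that Col1a1 probe set the intermittent hypoxia arrays read 9.42 to 9.66 and the normoxia arrays 8.92 to 9.48. The groups overlapped there, so the size of the Col1a1 difference depended on the probe set.

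Type V collagen, which starts the assembly of type I fibrils, did not pass on the represented probe sets. Col5a1 read 9.28, 9.20, 9.20, 9.20 and 9.33 in intermittent hypoxia, against 9.02, 9.04, 9.16, 9.06 and 9.16 in normoxia. These groups did not overlap, but the difference of 0.15 (SE 0.06) had a limma adjusted p of 0.0950 and of the tests run at 0.05 SAM alone called it (0.0267). Col5a2 differed by 0.25 (SE 0.10, limma adjusted p = 0.116), and its second probe set by 0.37 (SE 0.11, limma adjusted p = 0.0397). That second probe set lost its call after quantile normalization (0.33, limma adjusted p = 0.0622). It also lost it without any of 8 single arrays, all but intermittent hypoxia array 5 and normoxia array 5 (up to 0.0883). Col5a3 differed by -0.18 (SE 0.12, limma adjusted p = 0.310). The cartilage fibril collagens Col2a1, Col11a1 and Col11a2 differed by -0.11, -0.03 and -0.10, with limma adjusted p values from 0.281 to 0.778.

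**Figure D2:**
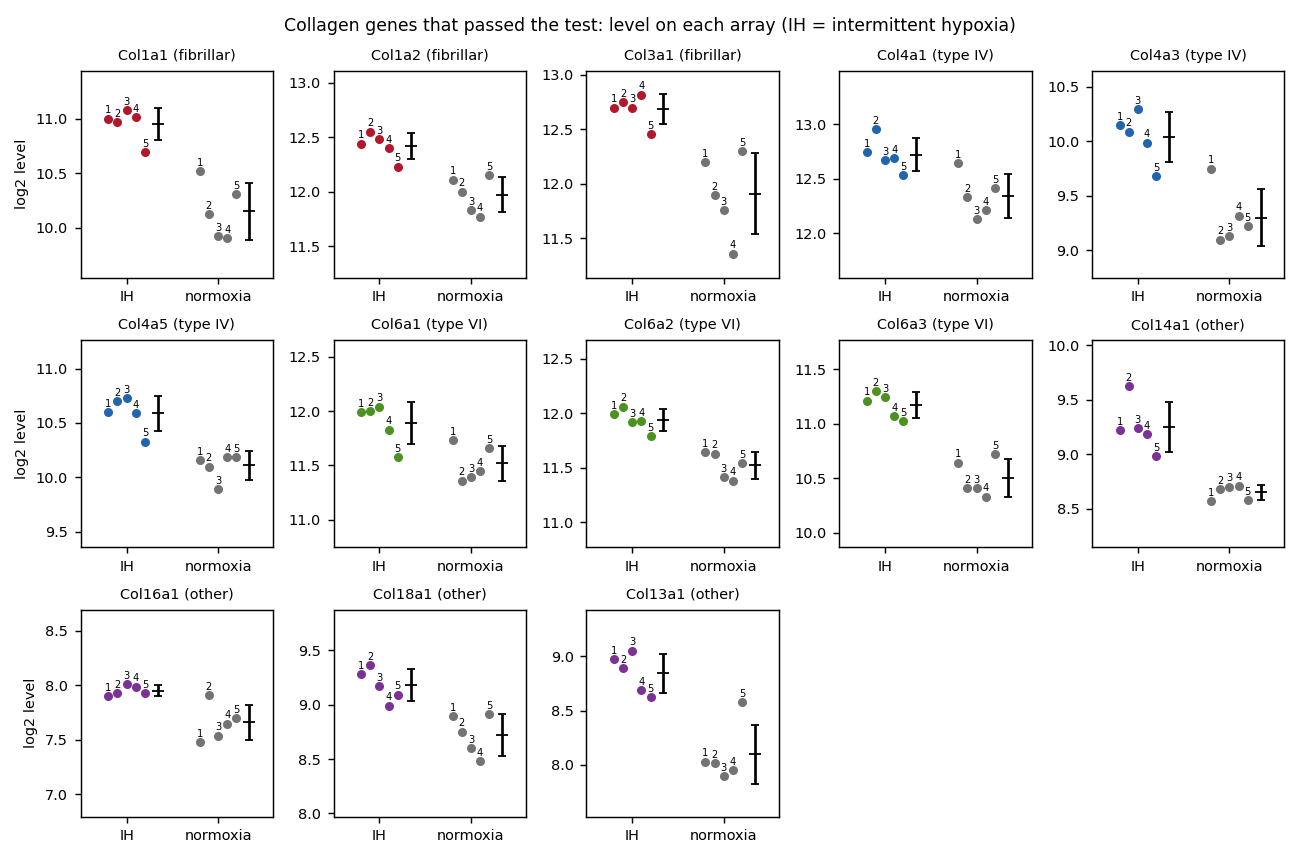
Log2 level (y axis, each panel spanning the same range) of the 13 collagen genes that passed, on each array, with intermittent hypoxia left of normoxia. Digits are array numbers and bars are the group mean with SD (n = 5 each). In Col4a1, Col4a3, Col6a1 and Col16a1 the groups overlap by at least 1 array, and in the other 9 every intermittent hypoxia array lies above every normoxia array.

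Type IV collagens rose in 3 of 6 cases, with 0 lower, 3 not passing and a median difference of 0.34. The genes lie in head-to-head pairs, and in each pair 1 gene passed and its neighbour did not. Col4a3, a chain of the network in glomerular and alveolar basement membranes, read 10.15, 10.09, 10.30, 9.99 and 9.68 in intermittent hypoxia, against 9.75, 9.10, 9.13, 9.32 and 9.22 in normoxia. Normoxia array 1 lay above intermittent hypoxia array 5, and the other arrays were apart. The difference was 0.74 (SE 0.13, limma adjusted p = 0.00830), or 1.67-fold. Its partner Col4a4, a chain of the same network, differed by 0.06 (SE 0.12, limma adjusted p = 0.736), with a 95% interval of -0.19 to 0.31, which lies below that of Col4a3 (0.45 to 1.03).

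Col4a5, the chain that joins Col4a3 and Col4a4, read 10.60, 10.70, 10.73, 10.59 and 10.33 in intermittent hypoxia, against 10.16, 10.10, 9.89, 10.19 and 10.19 in normoxia. The groups did not overlap. The difference was 0.49 (SE 0.09, limma adjusted p = 0.00793), and on the second probe set it was 0.90 (SE 0.16, limma adjusted p = 0.00768). Col4a6, its neighbour and a chain of other basement membranes, differed by 0.02 (SE 0.08, limma adjusted p = 0.886).

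Col4a1 and Col4a2 form the network found in nearly all basement membranes. Col4a1 read 12.74, 12.95, 12.67, 12.69 and 12.53 in intermittent hypoxia, against 12.64, 12.33, 12.13, 12.21 and 12.41 in normoxia. Intermittent hypoxia array 5 fell below normoxia array 1, so the groups overlapped. The difference was 0.37 (SE 0.10, limma adjusted p = 0.0339), and the second probe set gave 0.26 (limma adjusted p = 0.117). Col4a2 read 11.66, 11.74, 11.79, 11.58 and 11.35 in intermittent hypoxia, against 11.60, 11.20, 11.07, 11.34 and 11.42 in normoxia. At 0.30 (SE 0.11, limma adjusted p = 0.0788) its difference had an interval of 0.07 to 0.53, inside which the value of Col4a1 lay. The call of Col4a1 ended when any 1 of intermittent hypoxia arrays 1 to 4 or normoxia arrays 2 to 4 was left out, with limma adjusted p values up to 0.0894, and that of Col4a2 was gained without intermittent hypoxia array 5 (0.0363) or normoxia array 1 (0.0326).

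Type VI collagen, the beaded filament that surrounds cells in the interstitium, rose in all 3 measured chains, with a median difference of 0.42. Col6a3, the longest chain, read 11.21, 11.30, 11.24, 11.07 and 11.02 in intermittent hypoxia, against 10.64, 10.41, 10.41, 10.33 and 10.72 in normoxia. The groups did not overlap, and at 0.67 (SE 0.09, limma adjusted p = 0.00222), or 1.59-fold, it had the smallest adjusted p of the 36 collagens. Col6a2 read 11.99, 12.06, 11.92, 11.93 and 11.79 in intermittent hypoxia, against 11.64, 11.63, 11.41, 11.38 and 11.54 in normoxia. It differed by 0.42 (SE 0.07, limma adjusted p = 0.00788). A second probe set, of a design that may match further transcripts, gave 0.45 (limma adjusted p = 0.00355).

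Col6a1 read 11.99, 12.00, 12.04, 11.83 and 11.58 in intermittent hypoxia, against 11.73, 11.36, 11.39, 11.45 and 11.66 in normoxia. Intermittent hypoxia array 5 lay below normoxia arrays 1 and 5, and the groups overlapped. The difference was 0.37 (SE 0.10, limma adjusted p = 0.0345). It lost its call without intermittent hypoxia array 1, 2, 3 or 4 or normoxia array 2, 3 or 4 (limma adjusted p up to 0.0872) and after quantile normalization (0.21, limma adjusted p = 0.0822). Col6a1 and Col6a2 lie next to each other on chromosome 10, and were the only 1 of 6 neighbouring pairs of measured collagens in which both genes passed.

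Of the 18 other collagens 4 rose, 0 fell and 14 did not pass, with a median difference of 0.04. Among 9 fibril-associated collagens, which bind to the surface of fibrils, Col14a1 and Col16a1 rose. Col14a1 read 9.22, 9.62, 9.24, 9.18 and 8.98 in intermittent hypoxia, against 8.57, 8.68, 8.70, 8.71 and 8.58 in normoxia. Its normoxia arrays were tightly grouped, with all intermittent hypoxia arrays above them, and the difference was 0.60 (SE 0.10, limma adjusted p = 0.00594). The second, dimmer probe set of Col14a1 gave 0.22 (limma adjusted p = 0.0757).

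Col16a1 read 7.90, 7.93, 8.01, 7.99 and 7.93 in intermittent hypoxia, against 7.48, 7.91, 7.54, 7.65 and 7.70 in normoxia. Normoxia array 2 lay within the intermittent hypoxia range. The difference was 0.30 (SE 0.08, limma adjusted p = 0.0297), and it was lost without intermittent hypoxia array 1, 2, 3 or 4 or normoxia array 3 or 4, at limma adjusted p values up to 0.0773. The fibril-associated collagens of cartilage, Col9a1, Col9a2 and Col9a3, differed by -0.28, 0.09 and 0.03. Col12a1, Col19a1, Col20a1 and Col22a1 differed by 0.02, -0.00, -0.20 and 0.06. None of these 7 passed, and their limma adjusted p values ran from 0.0958 for Col20a1 to 0.994 for Col19a1.

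Col13a1, a collagen that spans the cell membrane, read 8.97, 8.89, 9.05, 8.69 and 8.62 in intermittent hypoxia, against 8.03, 8.02, 7.90, 7.95 and 8.58 in normoxia. Normoxia array 5 stood apart from the other normoxia arrays and just under the lowest intermittent hypoxia array. The difference was 0.75 (SE 0.13, limma adjusted p = 0.00646), or 1.68-fold. The other transmembrane collagens were Col17a1, which anchors epithelium in hemidesmosomes, at 0.16 (SE 0.15), and Col25a1 at 0.05 (SE 0.08), and neither passed.

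Col18a1, the basement membrane zone collagen whose end fragment is endostatin, read 9.28, 9.36, 9.17, 8.99 and 9.09 in intermittent hypoxia, against 8.89, 8.75, 8.60, 8.48 and 8.91 in normoxia. The groups did not overlap, and the difference was 0.45 (SE 0.10, limma adjusted p = 0.0141). Its second probe set gave 0.14 (SE 0.08, limma adjusted p = 0.270). Col15a1, of the same class, differed by 0.17 (SE 0.10, limma adjusted p = 0.260).

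None of the remaining collagens passed. Col7a1, the anchoring fibril under epithelium, differed by -0.06 (SE 0.08), and the short-chain collagens Col8a1 of vessels and Col10a1 of growing cartilage by 0.03 (SE 0.07) and -0.05 (SE 0.10). Col26a1 had the most negative difference of the 36, at -0.30 (SE 0.11, limma adjusted p = 0.0770), and passed as lower without intermittent hypoxia array 5 (0.0270) or normoxia array 5 (0.0303). Its only probe set was dim, with means of 5.30 in intermittent hypoxia and 5.60 in normoxia, at percentile 12.5 of all probe sets. Over the 22 probe sets not used to represent a gene, 8 belonged to the 13 risers. All 8 had a positive difference, and 4 of them passed. Of the 14 that belonged to other collagens 1 passed, that of Col5a2. Counted by probe set, 8.5% of all probe sets were higher and 3.43% lower.

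The risers were all found among the brighter probe sets. Of 19 collagens at or above the median level of all probe sets 13 rose, and of 17 below it 0 rose. Over all genes the share that was higher also climbed with level, being 2.42% below the 50th percentile, 9.51% from there to the 75th, 16.9% up to the 90th and 17.9% above it. Beside these shares, 0 of 17, 4 of 8, 2 of 3 and 7 of 8 collagens rose. The median difference of all genes was -0.06, 0.03, 0.12 and 0.15 in these bands, and that of the collagens 0.02, 0.23, 0.49 and 0.43. At or above the 50th percentile 13.6% of all genes were higher. The bands were chosen after the values were seen.

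**Figure D3:**
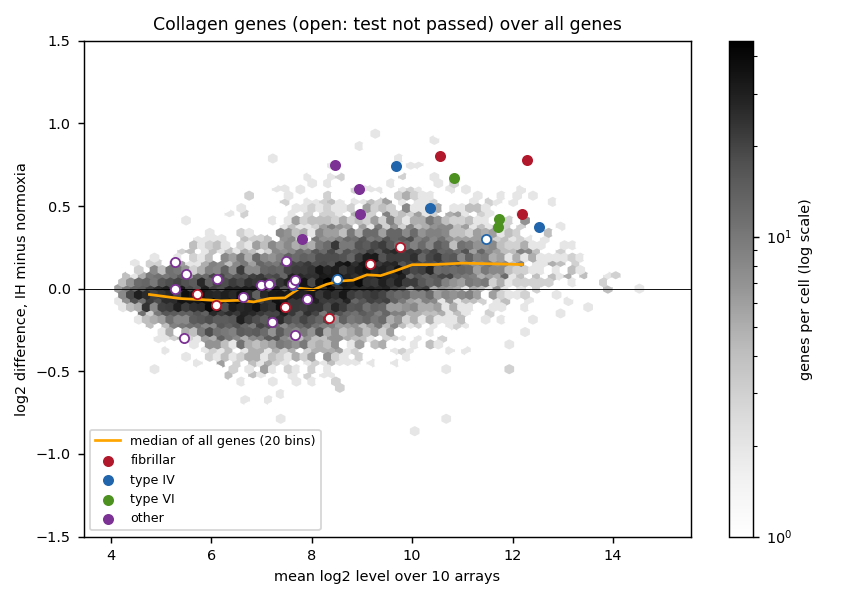
Log2 difference (y axis, intermittent hypoxia minus normoxia) against the mean log2 level over the 10 arrays (x axis) for all 12393 genes (grey cells, darker for more genes, values beyond 1.5 not drawn), with the 36 collagens as points (filled where the test was passed). The line is the median of all genes in 20 bins of equal size, and the filled points lie above it at every level where they occur.

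After quantile normalization, which removed this trend of the median (-0.02, -0.01, -0.01 and 0.00 in the same bands), 12 of the 13 collagens passed and Col6a1 did not. Their differences were then 0.24 for Col4a1 to 0.71 for Col13a1. In this setting 720 of all 12393 genes were higher, and at or above the 50th percentile of level 7.9% were. By gene, 71.3% of all called genes were higher with the deposited values and 54.9% after quantile normalization.

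Normoxia arrays 2, 3 and 4 had narrower spreads over all probe sets (SD 1.89 to 1.93) than the other 7 arrays (1.99 to 2.05), and they held the lowest value for 11 of the 13 risers. Normoxia array 1 held the lowest value for 2 risers, and the highest values were on intermittent hypoxia arrays 2 and 3 for 6 risers each and array 4 for 1. Without normoxia arrays 2 to 4 together, 0 of the 13 passed, with limma adjusted p values from 0.120 for Col6a3 to 0.654 for Col6a1 and 2 normoxia arrays left. Over all genes 0.0807% passed in that setting. All 13 differences stayed above 0, from 0.19 for Col4a1 to 0.67 for Col14a1. Of the 13 risers 10 kept their call when any 1 array was left out, all but Col4a1, Col6a1 and Col16a1.

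Averaged over the members after centring each gene, the collagen score of every intermittent hypoxia array (0.03 to 0.14) lay above that of every normoxia array (-0.16 to -0.07). The type VI score ran from 0.04 to 0.36 in intermittent hypoxia and from -0.37 to -0.09 in normoxia. In type IV the ranges touched, at 0.00 to 0.31 in intermittent hypoxia and -0.29 to 0.00 in normoxia, and in the fibrillar class they were 0.04 to 0.18 and -0.18 to -0.05. Intermittent hypoxia array 5 had the lowest score of its group for fibrillar, type IV and type VI collagens alike. In the other collagens the ranges overlapped, at 0.02 to 0.07 in intermittent hypoxia and -0.11 to 0.04 in normoxia.

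Promoter windows were at hand for 27 of the 36 collagens, 30 windows in all. CCAAT was found in 5 of 10 risers and 7 of 17 others with a window, against 37.4% of all 32851 windows of the same length. GGGCGG was found in 6 of the 10 risers and 10 of the 17 others, against 35.7% of all windows. TATAAA was in 2 of the 10 and 3 of the 17 (13.6% of all windows), and ACGTG in 1 of the 10, Col1a2, and 3 of the 17 (19.6%). A gene with more than 1 window counted as holding a motif if any window did. These matches are a description of letters, not of binding.

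Genes that modify, fold and export collagen rose in 5 of 17 measured cases and fell in 1, with a median difference of 0.14. Over all genes 8.93% were higher and 3.6% lower, and among those at or above the 50th percentile of level 13.6% were higher. These shares are the background for each list that follows, and the lists' counts are given as descriptions. Serpinh1, the collagen-specific chaperone HSP47, read 10.79, 11.41, 10.83, 11.47 and 11.13 in intermittent hypoxia, against 10.67, 10.41, 10.62, 10.49 and 10.44 in normoxia. Its intermittent hypoxia arrays were spread widely but all lay above normoxia, and it rose by 0.60 (SE 0.13, limma adjusted p = 0.0141), although quantile normalization gave 0.45 (limma adjusted p = 0.0563). Crtap, a partner of the prolyl 3-hydroxylase, rose by 0.43 (SE 0.08, limma adjusted p = 0.00929). Ppib (cyclophilin B), Sec24d (a coat protein of export vesicles) and P4hb (a subunit of prolyl 4-hydroxylase) rose by 0.41, 0.29 and 0.31, and leaving out any 1 of intermittent hypoxia arrays 1 to 4 or normoxia arrays 2 to 4 ended each of these calls (limma adjusted p up to 0.106). Sec24d and P4hb also lost it after quantile normalization (limma adjusted p = 0.0546 and 0.0865). The second probe set of Ppib gave 0.26 (limma adjusted p = 0.157). Plod1, a lysyl hydroxylase, fell by 0.24 (SE 0.07, limma adjusted p = 0.0432), and lost its call without intermittent hypoxia array 1, 2, 3 or 5 or normoxia array 2, 3 or 4 (up to 0.111). P4hb and Plod1 were named after their values were seen.

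Of 5 measured genes of procollagen trimming, both enhancers of the C-proteinase rose. Pcolce2 read 12.31, 12.38, 12.23, 11.91 and 11.65 in intermittent hypoxia, against 11.64, 11.28, 11.02, 11.32 and 11.43 in normoxia. The groups were apart by a hair, at intermittent hypoxia array 5 and normoxia array 1, and the difference was 0.76 (SE 0.14, limma adjusted p = 0.00929). Pcolce rose by 0.48 (SE 0.09, limma adjusted p = 0.0112). The proteinase gene Bmp1 itself differed by 0.14 (SE 0.09, limma adjusted p = 0.296).

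Of 5 measured crosslinking enzymes 1 rose, the lysyl oxidase gene Loxl1, and 1 fell, the lysyl oxidase gene Lox. Loxl3, Loxl4 and the transglutaminase gene Tgm2 did not pass, at -0.14, 0.05 and 0.02. Loxl1 read 11.35, 11.27, 11.19, 11.26 and 10.94 in intermittent hypoxia, against 10.31, 10.26, 9.95, 9.86 and 10.50 in normoxia. It was 2.03-fold higher (1.02, SE 0.12, limma adjusted p = 0.00138) and kept its call without normoxia arrays 2 to 4 (limma adjusted p = 0.0477). Lox read 9.66, 10, 9.91, 9.90 and 9.74 in intermittent hypoxia, against 10.41, 10.12, 10.13, 10.18 and 10.23 in normoxia. Here every intermittent hypoxia array lay below every normoxia array, and Lox fell by 0.37 (SE 0.08, limma adjusted p = 0.0148). Neither of its other probe sets passed, at -0.25 and 0.04, so the call of Lox rests on 1 of 3 probe sets.

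Of 7 genes of collagen breakdown 1 rose and 1 fell, few enough to lie near the shares over all genes (8.93% higher, 3.6% lower). The gelatinase gene Mmp2 differed by 0.70 (SE 0.14, limma adjusted p = 0.0118), and its second probe set by 0.44 (limma adjusted p = 0.0153). Mmp8, the collagenase of neutrophils, fell by 0.49 (SE 0.14, limma adjusted p = 0.0441) and lost this call after quantile normalization (0.0559) and without any of 8 single arrays, all but intermittent hypoxia array 4 and normoxia array 5 (up to 0.101). Of 6 collagen receptors 1 rose, Mrc2, which takes collagen into the cell, by 0.39 (SE 0.10, limma adjusted p = 0.0226), and it lost its call without intermittent hypoxia array 2 or normoxia array 3 or 4 (up to 0.0649). The second probe set of Mrc2 gave 0.27 (limma adjusted p = 0.0663). Itgb1, the shared subunit of the collagen-binding integrins, differed by 0.34 (SE 0.12, limma adjusted p = 0.0747). Of its 5 further probe sets 1 passed, at 0.52 (limma adjusted p = 0.0257), and the others gave -0.01 to 0.26.

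Of 13 fibril-binding partners 3 rose and 0 fell, with a median difference of 0.26. The 3 lie above the 90th percentile of level, where 17.9% of all genes were higher. These were dermatopontin (Dpt, 0.32), Sparc (0.26) and osteoglycin (Ogn, 0.38), with limma adjusted p values of 0.0240, 0.0426 and 0.0443. Leaving out any 1 of intermittent hypoxia arrays 1 to 3 or normoxia arrays 2 to 4 ended each call, as did intermittent hypoxia array 4 for Sparc (up to 0.109), and Sparc and Ogn also lost it after quantile normalization (0.165 and 0.0664). Of 8 genes of TGF-beta signalling, a pathway that drives collagen transcription in fibroblasts, 4 rose and 0 fell, beside 8.93% higher and 3.6% lower over all genes. The ligands Tgfb3 and Tgfb2 rose by 0.40 and 0.35, the receptor Tgfbr2 by 0.58 and the transducer Smad2 by 0.29, with limma adjusted p values of 0.00685, 0.00929, 0.0130 and 0.0135. Of 2 further probe sets of Tgfbr2 1 passed, at 0.44, and the other gave -0.01.

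**Figure D4:**
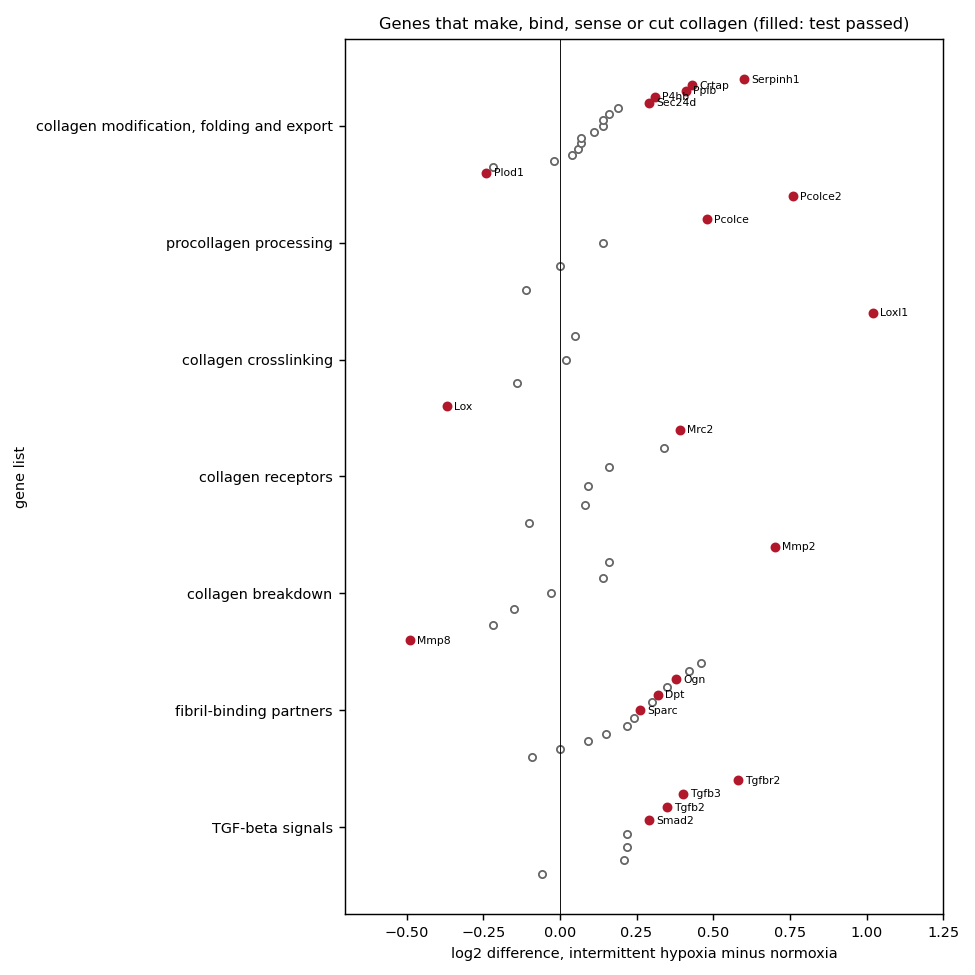
Log2 difference (x axis, intermittent hypoxia minus normoxia) of the measured genes in each list of collagen-related genes (y axis). Filled, named points passed limma's test and open points did not. Loxl1 at 1.02 and Mmp8 at -0.49 are the ends of the range.

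Markers of several cell types were set beside the collagens, and their part in the collagen differences was not tested. The lung's own markers were bright. Sftpc was at 14.59 in intermittent hypoxia and 14.60 in normoxia, near the top of the scale (14.94), Scgb1a1 at 14.58 and 14.59 and Ager at 13.09 and 12.90. The largest differences of that list were those of the endothelial marker Pecam1, at 0.42 (SE 0.14, limma adjusted p = 0.0720), and the epithelial marker Epcam, at 0.26 (SE 0.09, limma adjusted p = 0.0686). In limma's test 0 of 8 lung markers passed, with 3 higher at an unadjusted p below 0.05 and 1 called by SAM. Of 10 fibroblast markers that are no collagens 1 rose, Npnt, by 0.57 (SE 0.12, limma adjusted p = 0.0125). The median of that list was 0.07, and its mean log2 level ran from 10.58 to 10.74 in intermittent hypoxia and from 10.29 to 10.66 in normoxia. Of the 10 differences 8 were above 0. Meox2, Thy1 and Pdgfrb differed by 0.21, 0.17 and 0.17, with limma adjusted p values of 0.0788, 0.293 and 0.366. Those below 0 were Pdgfra at -0.14 and Tcf21 at -0.06 (limma adjusted p = 0.37 and 0.75). After quantile normalization Npnt still passed as higher (0.42, limma adjusted p = 0.00876). In that setting Pdgfra passed as lower (-0.29, limma adjusted p = 0.0162), and the median of the list was 0.02. Of 9 smooth muscle and pericyte markers Rgs5 fell by 0.63 (limma adjusted p = 0.0166) and 8 did not pass, with levels of 9.76 to 10.19 in intermittent hypoxia and 9.87 to 10.13 in normoxia. The further probe sets of Rgs5 gave -0.38, -0.26 and -0.14, with limma adjusted p values of 0.0719, 0.038 and 0.471.

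Of 5 mesothelial markers Gpm6a and Upk3b rose, by 0.41 and 0.55 (limma adjusted p = 0.00764 and 0.0334), and both lost the call after quantile normalization (0.0566 and 0.0586), and Upk3b without any of 8 single arrays, all but intermittent hypoxia array 1 and normoxia array 5 (up to 0.0840). Their list's mean level ran from 8.28 to 8.45 in intermittent hypoxia and from 7.95 to 8.38 in normoxia. Of 5 leukocyte markers 3 rose, Cd68 by 0.74, Ptprc by 0.75 and Ms4a1 by 1.14. Itgam and Cd3e did not pass, at 0.09 and -0.09 (limma adjusted p = 0.494 and 0.524). The leukocyte list's mean level of 8.64 to 9.02 in intermittent hypoxia lay above 8.14 to 8.53 in normoxia. All 9 chondrocyte markers were listed with differences between -0.25 and -0.00, none passed (1 was lower at an unadjusted p below 0.05, and SAM called 1), and their level was 6.01 to 6.10 in intermittent hypoxia and 6.06 to 6.21 in normoxia. The cartilage collagens Col2a1, Col9a1, Col9a2, Col9a3, Col10a1, Col11a1 and Col11a2 likewise gave no call. Of 6 adipocyte markers 1 fell, and of 7 striated muscle markers 2 fell. The adipocyte level was 7.20 to 8.30 in intermittent hypoxia and 8.08 to 9.26 in normoxia, and the striated muscle level was 8.64 to 9.20 in intermittent hypoxia and 9.11 to 10.91 in normoxia. The top of that range was normoxia array 2 alone, whose striated muscle score was 1.61, while the intermittent hypoxia arrays scored -0.66 to -0.10 and the other normoxia arrays -0.19 to 0.25. Acta1 read 6.01 to 6.71 in intermittent hypoxia, against 13.12 on normoxia array 2 and 5.68 to 6.99 on the other normoxia arrays. Casq1 read 7.38 to 8.18 in intermittent hypoxia, against 9.85, 9.78 and 9.43 on normoxia arrays 2, 3 and 4 and 8.02 and 8.08 on normoxia arrays 1 and 5. Trdn read 7.07 to 7.68 in intermittent hypoxia, against 9.51, 8.85 and 8.70 on normoxia arrays 2, 3 and 4 and 8.20 and 7.25 on normoxia arrays 1 and 5. Trdn and Casq1 fell (limma adjusted p = 0.0302 and 0.0365), and leaving out any 1 of intermittent hypoxia arrays 1 to 4 or normoxia arrays 2 to 4 ended both calls (up to 0.0780 and 0.0949). Trdn and Casq1 were highest on the arrays without which none of the 13 collagens passed, and their part in the collagen differences was not tested. The other striated muscle markers did not share that pattern. Ckm read 11.50 on normoxia array 2 and 7.99 to 8.11 on the other normoxia arrays, and Myh6 read 12.25 to 12.35 in normoxia. Tnnt2 and Tnni3 differed by 0.14 and 0.02, and normoxia array 2 was their lowest normoxia array, at 10.58 and 9.56.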

How the data were processed

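Whole lung RNA of 10 mice was measured, 1 array per mouse. The deposited values are log2 probe set levels; per the submitters' processing notes they were made with RMA in affy (no version stated), and how the arrays were normalized together is not given in the sources used here. Array medians were 7.69 to 7.73. Probe sets were named from the platform annotation (1 symbol for 20380, several for 691, none for 1555), and for 20351 of the 20380 the Entrez number was found in the reference annotation. No probe set was filtered. Groups were compared with limma 3.58.1 (lmFit, eBayes) under R 4.3.3. Tests were two-sided, p was adjusted by Benjamini-Hochberg across the 22626 probe sets, and calls were made below 0.05. A difference is the mean log2 level in intermittent hypoxia minus that in normoxia. The number of arrays limits the precision. The fit and a SAM with 100 permutations were tested on simulated data. Alternatives were quantile normalization, median centring, a level filter, eBayes trend and robust options, arrayWeights, SAM, an adjusted p below 0.10, a replicate block, means over probe sets and leaving arrays out. The named genes were all collagens, up to 4 of smallest p in each other list, and defining markers that check the tissue. Genes outside this rule, named after their values were seen, were P4hb, Plod1, Tgm2, Pdgfra, Tcf21, Cd3e, Acta1, Tnnt2 and Tnni3. The bands of level were chosen after the values were seen, and the members and lists were chosen with earlier results of these data known.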

Additional observations from a re-analysis of the deposited data

Results flagged for a closer look

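In 140 groups of 5 arrays, 1 array lay far from the others in 4 groups by Dixon's ratio of gap to range at the 95% level, and chance marks about 1 in 20. All 4 were in normoxia. For Col13a1, normoxia array 5 read 8.58, with the next array at 8.03. For Col19a1, normoxia array 2 read 5.49, with the next at 5.22. For Col8a1, normoxia array 3 read 7.42, with the next at 7.60. For Col11a1, normoxia array 4 read 5.92, with the next at 5.72.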

How the results depend on the processing

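The count of 13 collagens higher stayed between 11 and 15 with quantile normalization (12), median centring, the level filter, eBayes trend and robust options, arrayWeights and the mean of probe sets (13 each, the last with Col5a2 in and Col4a1 out), SAM (14), an adjusted p below 0.10 (15) and the replicate block (11). Probe sets counted on their own gave 18, with 6 fibrillar. Same-numbered arrays deviated together (correlation over 0.1) in 2 of 5 pairs, and 3 of the 5 intermittent hypoxia arrays correlated best with their own number. These values do not settle whether the numbers mark pairs, and the main fit took none. The replicate block ended the calls of Col6a1 (adjusted p = 0.0636) and Col16a1 (0.0540) and gave 1755 changed probe sets. Against 0 lower collagens, arrayWeights gave 1 (Col20a1) and an adjusted p below 0.10 gave 2. All probe sets changed numbered 2699, against 4132 with arrayWeights, 4326 with SAM and 4954 at an adjusted p below 0.10. With 1 array left out, 10 to 14 collagens were higher and 0 to 1 lower, with 1003 (without normoxia array 4) to 4800 (without normoxia array 5) probe sets changed. By class, 3 fibrillar, 2 to 4 type IV, 2 to 3 type VI and 3 to 4 other collagens were then higher. Without normoxia arrays 2, 3 and 4 together, 16 probe sets and 0 fibrillar, 0 type IV, 0 type VI and 0 other collagens passed; the cause was not tested. No collagen that was called changed sign in any of these settings. The deposited values carry no detection call, so signal over background was not assessed for the 17 collagens below the median level.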
